A study of Mus musculus with 5 samples.

Results

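The regions described here were the broad H3K9me3 islands of L-proline-induced cells (PiCs), the autosomal islands at least 10 kb wide. An island is a stretch of enriched windows that the caller SICER joins into 1 region. Of the 24422 autosomal H3K9me3 islands of PiCs, 732 met this limit. The 4 lists used held 73415 islands. A further 17 islands of this width on chromosomes X and Y were left out. Members were chosen by their width in PiCs, so their number, width and tag counts are given as a description.

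The libraries came from TBV2, a wild-type mouse embryonic stem cell (ESC) line of the 129/SvP strain. PiCs were given 500 µM L-proline for 5 days, and ESCs were kept for 5 days without it. Both were plated sparsely on gelatin with no feeder cells, in medium with leukemia inhibitory factor and lacking non-essential amino acids. Chromatin immunoprecipitation with sequencing (ChIP-seq) was made for H3K9me3 and H3K36me3 in PiCs and in ESCs, with 1 library of each, so no difference between PiCs and ESCs had a replicate check and none was tested. The input library, from untreated cells, was not analysed here.

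H3K9me3, trimethylation of lysine 9 of histone H3, is written by SETDB1 and the SUV39H enzymes and is bound by HP1 proteins, which can recruit further methylation to neighbouring nucleosomes. In ESCs it is known from endogenous retroviruses, satellite repeats near centromeres, imprinted regions and zinc finger gene clusters. H3K36me3 is written by SETD2 across the bodies of transcribed genes, and the marks mostly lie apart. The comparison asked how much of the broad H3K9me3 ground of PiCs was also marked in ESCs, and whether it carried H3K36me3.

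The autosomal H3K9me3 lists held 24422 islands with 3294772 tags in PiCs and 17697 islands with 1440142 tags in ESCs, and the H3K36me3 lists 16363 islands in PiCs and 11971 in ESCs. A tag is a sequenced fragment assigned to an island. Tags were known under called islands alone, so library depth is unknown and tag counts of PiCs and ESCs are not on 1 scale. Where shares of islands carry a range, it is an exact 95% binomial interval over islands, which covers counting error and says nothing of the spread between cultures. Positions are those of mouse build mm9.

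The broad islands were mostly just past the limit. Their median width was 11.8 kb, the middle 50% ran from 10.8 to 14.2 kb, and the widest reached 73 kb. Together they spanned 9.63 Mb, which was 10.5% of the autosomal H3K9me3 bases of PiCs, and held 12.8% of the tags. Tag density ran from 20.2 to 560.5 tags per kb, with a median of 37.3 against 33.2 in the narrower PiC islands. A density above 100 tags per kb was found in 11 of the 732 members and in 178 of the 23690 narrower islands. At the limit itself, the 50 islands of 10 kb had a median of 40.15 tags per kb and the 54 islands of 10.2 kb one of 35.98, and the 52 islands of 9.8 kb just outside it had 34.9.

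Most broad PiC islands lay over H3K9me3 that was already called in ESCs, but in ESCs it filled little more than 50% of the ground. An ESC H3K9me3 island met 657 of the 732 members (89.8%, range 87.3 to 91.9), and ESC islands covered 53.9% of the members' bases. Members were spread over the whole scale of ESC cover, with a median of 56.7% and the middle 50% between 31.5% and 76.85%. No ESC base was found in 75 members (10.2%, range 8.15 to 12.7), against 45.0% of all autosomal PiC islands. ESC cover was under 50% of the span, a covered length more than 2 times higher in PiCs, in 309 members (42.2%, range 38.6 to 45.9), against 58.5% of all autosomal PiC islands. It was 90% or more in 81 members (11.1%, range 8.885 to 13.6), against 14.9% of all. The share with low ESC cover was thus below the level of the whole list, as was the share with nearly full cover. That list is mostly of narrower islands, and these shares differ with width. Among PiC islands of 7 to under 10 kb, 20.7% had no ESC base and 50.3% had cover under 50%. Cover was 90% or more in 10.3% of them, so the members' 11.1% was not lower than in this class.

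**Figure D1:**
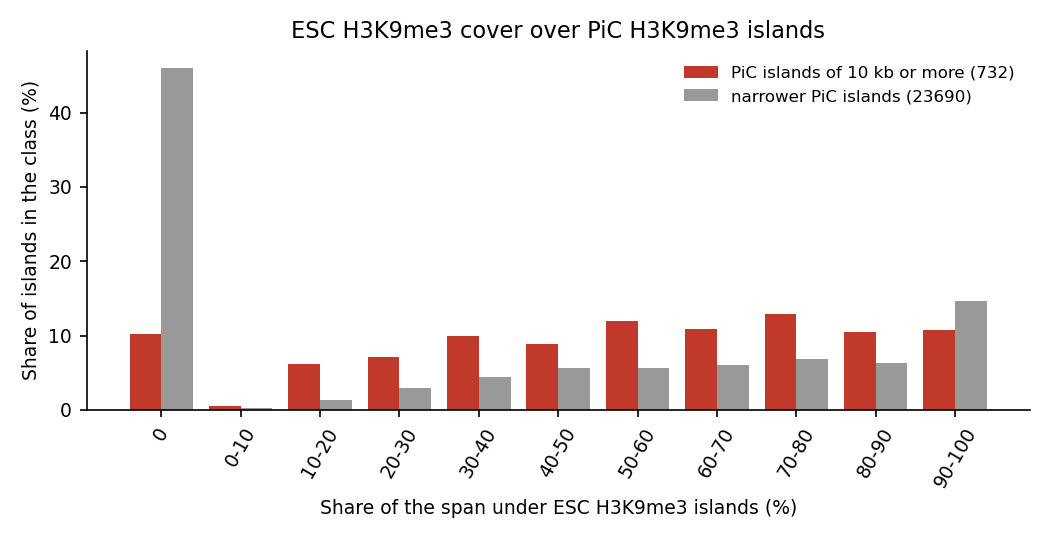
Share of islands (y axis, %) by the part of their span under ESC H3K9me3 islands (x axis, %; the first pair is exactly 0) for the 732 broad PiC islands (red) and the 23690 narrower ones (grey). Of the broad islands 75 are at 0 and the rest spread widely, whereas 46.0% of the narrower islands are at 0.

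Cover by ESC H3K9me3 was higher the wider the class of PiC islands. It was 31.4% of the bases of islands under 2 kb, 39.3% at 3 to under 5 kb and 47.3% at 7 to under 10 kb. Among members it was 49.6% at 10 to under 11 kb, 55.8% at 13 to under 15 kb and 59.0% in the 40 members of 20 kb or more. At the limit itself it was 53.4% in the 54 islands of 10.2 kb and 53.2% in the 50 of 10 kb. Just outside the limit it was 42.5% in the 52 islands of 9.8 kb and 47.7% in the 64 of 9.6 kb. These classes share both libraries and are set side by side as a description.

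**Figure D2:**
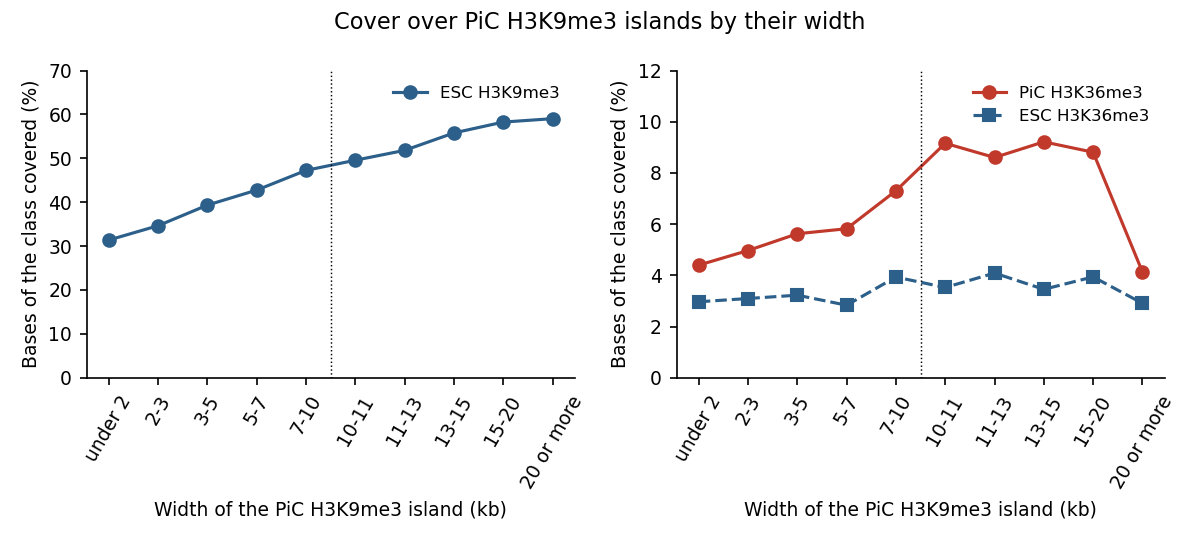
Bases covered (y axes, %) by ESC H3K9me3 (left), and by PiC (red) and ESC (blue) H3K36me3 (right), in PiC H3K9me3 islands grouped by width in kb (x axes); the dotted line marks 10 kb. ESC H3K9me3 cover is 31.4% in the narrowest class and 59.0% in the widest, and PiC H3K36me3 cover is highest, at 9.21%, in members of 13 to under 15 kb.

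Selection by width in PiCs favours PiCs, so the reverse choice was also measured. Of the autosomal ESC H3K9me3 islands 190 were 10 kb or wider, and PiC islands covered 80.6% of their bases, compared with the 53.9% of PiC members covered by ESC islands. Over all autosomal islands the order was the same, with 41.4% of the PiC bases under ESC islands and 71.05% of the ESC bases under PiC islands. PiC cover was under 50% in 31 of these 190 (16.3%, range 11.4 to 22.35), against 23.9% of all autosomal ESC islands. Taking only as many of the widest PiC islands, 190 of 14.2 kb or more, ESC islands covered 58.2% of them. A broad ESC island was present at 120 of the 732 members (16.4%, range 13.8 to 19.3), and a member at 119 of the 190 broad ESC islands (62.6%, range 55.3 to 69.5).

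The ESC islands inside members were usually narrower than the limit. Across the 657 members with ESC H3K9me3, the widest ESC island met had a median width of 6.2 kb. It was under 5 kb in 234 members, 5 to under 10 kb in 303 and 10 kb or more in 120. In 417 members a single ESC island was met. There the PiC island had a median width of 11.4 kb and the ESC island one of 6.8 kb. The choice by PiC width favours a wider PiC island, so these values describe the members and are no measure of a gain. The PiC island was the wider in 382 of the 417 (91.6%) and the ESC island in 27, with a median difference of 5.2 kb (middle 50% from 2.2 to 8 kb). Under the reverse choice, in the 139 broad ESC islands that met a single PiC island, the PiC island was the wider in 78 and the ESC island in 53 (38.1%), with median widths of 12.6 kb in PiCs and 11.6 kb in ESCs. Among all 12709 autosomal PiC islands that met a single ESC island, the PiC island was the wider in 8893, with a median difference of 0.8 kb. In 212 of the 417 members (50.8%, range 45.9 to 55.7) the PiC island reached more than 1 kb further at 1 end, with the other end within 1 kb. In 136 (32.6%, range 28.1 to 37.3) it did so at both ends, and in 41 (9.83%) both ends lay within 1 kb. Among all 12709 such islands these shares were 34.6%, 5.66% and 48.8%. The median distance from the ESC edge to the PiC edge was 1.8 kb at the low-coordinate and 1.8 kb at the high-coordinate end of members.

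About 1 in 3 members spanned several ESC islands. In 240 members (32.8%, range 29.4 to 36.3) 2 or more ESC H3K9me3 islands were met, against 2.99% of all autosomal PiC islands. A wider span has room for more islands, and PiC islands of 7 to under 10 kb met several in 13.7% of cases. The number was 2 in 191 members, 3 in 42, 4 in 6 and 5 in 1. The ESC gaps within these members were short. Of 297 gaps, 211 (71.0%) were at most 2 kb, the median was 1.2 kb and the smallest 0.8 kb, which is also the smallest gap in either H3K9me3 list. The widest gap bridged was 14 kb. The member with 5 ESC islands lay on chromosome 3 (3175601 to 3194600), was 19 kb wide and had 61.1% of its span under ESC islands of at most 3.6 kb. Of the members with 4 ESC islands, the widest were on chromosome 18 (37021401 to 37058400 and 36963801 to 36985200), chromosome 2 (181662601 to 181683400) and chromosome 13 (3418201 to 3434400). ESC cover in them ran from 52.9% on chromosome 2 to 84.9% in the first on chromosome 18.

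The widest members differed in how far ESCs shared them. The widest, on chromosome 11 (3027201 to 3100200), was 73 kb wide with ESC cover of 100%, and held 335.6 tags per kb in PiCs and 167.9 in ESCs. The second, on chromosome 1 (90122001 to 90164000, 42 kb), had ESC cover of 97.1%, with 30.9 tags per kb in PiCs and 26.7 in the covered part in ESCs. The third, on chromosome 18 (37021401 to 37058400), was 37 kb wide in PiCs, where ESCs had 4 islands, the widest 20.2 kb. On chromosome 17 (27373201 to 27402800, 29.6 kb) ESC cover was again 100%, and tag density was 91.6 per kb in PiCs and 101.9 in ESCs. These densities are unscaled, so none of them gives a direction between conditions.

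Others among the 10 widest had no ESC base, or ESC cover of 41.9% or less. Only called islands were known, so ground outside ESC islands may still hold H3K9me3 in ESCs. On chromosome 1 (173467401 to 173500200) a 32.8 kb member with 52.7 tags per kb had no ESC base, and the nearest ESC island was 29.4 kb away. On chromosome 7 (5895001 to 5920000, 25 kb) ESC cover was 9.6%, from 1 island of 2.4 kb. On chromosome 13 (61236001 to 61260800, 24.8 kb) it was 41.9%, from 3 islands. The remaining 3 of the 10 widest were on chromosome 3 (4867601 to 4895000 and 106036201 to 106062000), with ESC cover of 74.5% and 89.9%, and on chromosome 1 (87757201 to 87782800), with 93.0%.

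Members with no ESC base were sparser in tags. Their median was 29.9 tags per kb in PiCs, against 40.9 in members with ESC cover of 50% to under 90% and 47.9 in those with 90% or more. Among narrower islands these medians were 30.5, 36.4 and 41.8. The distance from members with no ESC base to the nearest ESC island varied, and no level for other PiC islands stands beside it. Of the 75 members, 41 had no ESC island within 10 kb and 15 none within 50 kb, and the median distance was 11.2 kb. After the member on chromosome 1 at 173467401, the widest were on chromosome 1 (8377001 to 8401000, 24 kb), chromosome 9 (19951401 to 19972600, 21.2 kb), chromosome 7 (69658801 to 69679800, 21 kb) and again chromosome 7 (5574401 to 5593800, 19.4 kb). Their tag densities in PiCs were between 27.9 and 33.9 per kb, and the nearest ESC islands lay 3.6, 12.2, 2 and 22.4 kb away in that order. None of these 5 carried H3K36me3 in either condition.

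Where ESC islands filled 90% or more of a span, the tags of both libraries covered nearly the same bases. In those 81 members the median density was 47.9 tags per kb in PiCs and 31.3 in ESCs, and the median ratio was 1.665 (middle 50% from 1.33 to 1.93). The PiC value was the higher in 72 of 81, but with each list divided by its own autosomal sum the median ratio was 0.728 and the PiC value was the higher in 3 of 81, so the direction turns with the scaling. In the 3567 narrower islands with such cover the unscaled ratio was 1.64 (middle 50% from 1.35 to 1.98) and the scaled one 0.719. Over all 657 members with an ESC base, PiCs held 2.16 times the ESC tags, a ratio of 0.945 once each list was divided by its own autosomal sum. ESC tags outside called islands are not in this ratio.

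Of the 5 members densest in tags, 4 lay at the low-coordinate end of their chromosome. They were on chromosome 9 (3015001 to 3033000) with 560.5 tags per kb in PiCs and 280.8 in ESCs, on chromosome 11 (3027201 to 3100200, given above), on chromosome 4 (3006001 to 3018800) with 208.1 in PiCs and 93.6 in the covered part in ESCs, and on chromosome 11 (3000001 to 3016400) with 151.6 in PiCs and 20.45 in the covered part in ESCs. Mouse chromosomes carry their centromere at this end. The other was on chromosome 17 (39972601 to 39986000), with 177.5 tags per kb in PiCs and, over the 58.2% that ESC islands covered, 265.1 in ESCs. H3K36me3 islands covered 47.8% of it in PiCs and 44.8% in ESCs. Without the input, sites that gather tags in any library could not be told apart from marked ones.

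H3K36me3 was called at few broad islands, and at more of them in PiCs than in ESCs. The lists differ in their floors, as the fewest tags of an autosomal H3K36me3 island were 49 in PiCs and 88 in ESCs. A span without a called island may thus still carry the mark, and the part of depth in these calls was not tested. PiC H3K36me3 met 93 members (12.7%, range 10.4 to 15.3), against 6.34% of all autosomal PiC H3K9me3 islands, and ESC H3K36me3 met 45 (6.15%, range 4.52 to 8.14), against 3.74% of all. A wider span has more room to be met. Among PiC H3K9me3 islands of 7 to under 10 kb the shares were 9.59% in PiCs (range 8.19 to 11.1) and 5.075% in ESCs (range 4.05 to 6.27). In bases, H3K36me3 covered 8.40% of the members in PiCs and 3.71% in ESCs, and 5.72% of the narrower islands in PiCs and 3.20% in ESCs. Both conditions had it at 43 members, PiCs alone at 50 (6.83%, against 2.94% of all islands and 4.76% of those of 7 to under 10 kb) and ESCs alone at 2 (0.273%, against 0.340% of all). The remaining 637 members had none. A difference of 50 percentage points or more in favour of PiCs was found at 31 members (4.23%), against 2.68% of all islands and 3.57% at 7 to under 10 kb. In favour of ESCs it was found at none, against 0.283% of all (0 of 732, exact interval up to 0.503%).

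The excess of PiC over ESC H3K36me3 was greatest in the spans themselves and small in the sequence around them. In the 10 kb on either side H3K36me3 covered 4.60% in PiCs and 3.495% in ESCs, from 10 to 50 kb away 5.50% in PiCs and 5.09% in ESCs, and from 50 to 100 kb away 6.60% in PiCs and 6.33% in ESCs. Narrower islands showed the same order, with 5.72% in PiCs and 3.20% in ESCs inside, and 6.66% in PiCs and 6.61% in ESCs from 50 to 100 kb away. Over all autosomes the H3K36me3 islands of PiCs covered 225.4 Mb and those of ESCs 227.7 Mb. Broad ESC H3K9me3 islands, chosen without the PiC list, also had more H3K36me3 in PiCs, at 19.1% of their bases against 10.6% in ESCs. Over all autosomal ESC H3K9me3 islands these values were 13.2% in PiCs and 8.41% in ESCs. H3K36me3 met 27.9% of the broad ESC islands in PiCs and 18.4% in ESCs, above the 12.7% and 6.15% of the members.

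**Figure D3:**
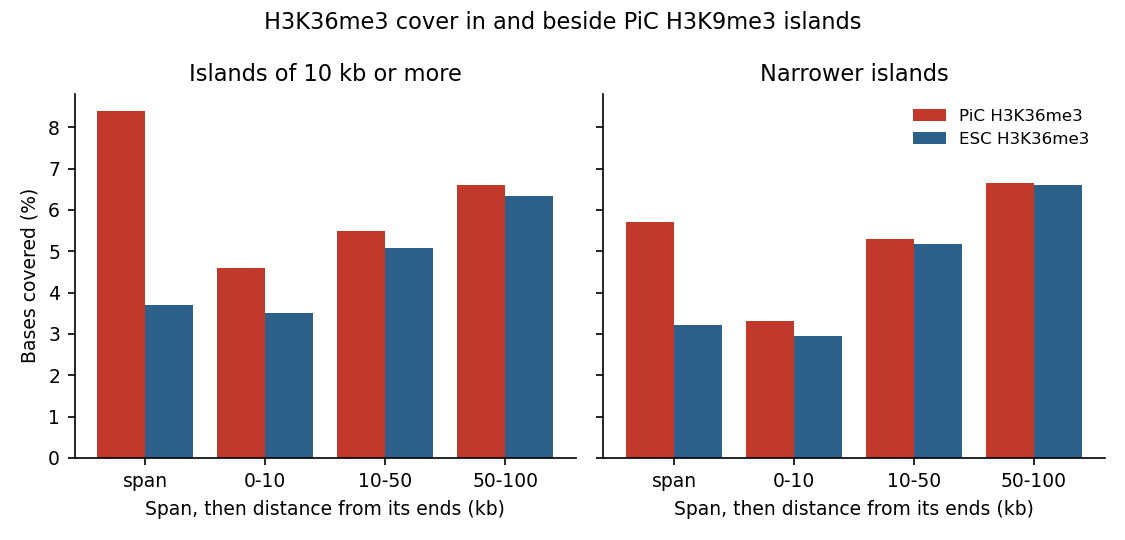
Bases covered by H3K36me3 (y axis, %) in PiCs (red) and ESCs (blue), within PiC H3K9me3 islands and at 3 distances in kb from their ends (x axis), for the broad islands (left) and the narrower ones (right). Within the broad islands the values are 8.40% in PiCs and 3.71% in ESCs, and at 50 to 100 kb they are 6.60% in PiCs and 6.33% in ESCs.

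The PiC H3K36me3 islands at the 50 members without ESC H3K36me3 were narrower than the list as a whole and lay mostly inside H3K9me3. There were 56 of them, with a median width of 5.4 kb against 8.8 kb for all autosomal PiC H3K36me3 islands, and 93.0% of their bases were under PiC H3K9me3. They were picked for meeting a broad H3K9me3 island, so the overlap follows in part from the choice. It was 56.3% for the 645 PiC H3K36me3 islands at narrower H3K9me3 islands marked in PiCs alone, and 29.85% for all 1468 that met any PiC H3K9me3 island. The 56 islands had a median density of 42.4 tags per kb, against 49.2 over the whole autosomal list. The 645 islands had a median width of 4.2 kb and a median density of 44 tags per kb. Narrow and sparser H3K36me3 islands were thus not particular to the members. At the 43 members marked in both conditions, 49 PiC H3K36me3 islands had a median width of 15 kb, 65.9 tags per kb and 56.9% of their bases under PiC H3K9me3. The 45 ESC H3K36me3 islands there had a median width of 14 kb, 73.5 tags per kb and 52.9% of their bases under it. Of the 50 members with PiC H3K36me3 alone, 49 had ESC H3K9me3, which covered 67.3% of their bases. This cover was 65.6% in the 43 members marked in both conditions and 52.05% in the 637 members free of H3K36me3. Narrower PiC islands showed the same order, at 58.8% with PiC H3K36me3 alone, 54.0% with both and 38.65% with neither. Of those with PiC H3K36me3 alone, 486 of 668 had ESC H3K9me3. In the class of 7 to under 10 kb, 74 of 76 had it.

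Single members showed both patterns. H3K36me3 covered the whole of 24 members in PiCs and of 9 in ESCs. Cover of 90% or more was near the level of other PiC islands. In PiCs it was found at 4.78% of members, 4.45% of islands of 7 to under 10 kb and 3.95% of all narrower islands. In ESCs the shares were 2.32%, 2.63% and 2.46% in that order. The widest member with full cover was on chromosome 17 (6941001 to 6956600, 15.6 kb), filled by H3K36me3 in both conditions and by ESC H3K9me3. It had 131.4 H3K36me3 tags per kb in PiCs and 183.1 in ESCs. On chromosome 4 (11101001 to 11114600), chromosome 17 (85368201 to 85380200 and 83760201 to 83771800) and chromosome 7 (134601801 to 134613600) H3K36me3 also covered 100% in both. Cover was 100% in PiCs and lower in ESCs on chromosome 16 (98229201 to 98244600, 36.4% in ESCs), on chromosome 10 (81831401 to 81846600, 85.5%, and 82867401 to 82882600, 65.8%) and on chromosome 8 (23598401 to 23613600, 92.1%).

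The 5 greatest differences were at members with H3K36me3 over 100% of the span in PiCs and 0% in ESCs. They were on chromosome 7 (135621801 to 135633400), chromosome 10 (78970601 to 78981600), chromosome 1 (11360001 to 11370800), chromosome 9 (3558601 to 3569200) and chromosome 5 (110359201 to 110369400). Their PiC H3K36me3 densities were 25.2, 32.7, 68.45, 41.35 and 28.5 tags per kb in that order, against a list median of 49.2. The lowest density of any autosomal H3K36me3 island was 19.9 tags per kb in PiCs and 26.8 in ESCs, unscaled. ESC H3K9me3 covered 94.4% of the chromosome 1 member, 85.5% of that on chromosome 10 and none of that on chromosome 7. Differences in favour of ESCs were seen at 8 members and were smaller. The greatest was on chromosome 7 (30662401 to 30672600), with H3K36me3 over 0% in PiCs and 23.5% in ESCs, followed by chromosome 17 (95214401 to 95226000), with 87.9% in PiCs and 100% in ESCs. The next were on chromosome 16 (8546201 to 8557000), with 83.3% in PiCs and 94.4% in ESCs, chromosome 5 (105011201 to 105021200), with 92% in PiCs and 98% in ESCs, and chromosome 17 (55994001 to 56005400), with 8.77% in PiCs and 12.3% in ESCs.

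Broad islands were unevenly spread over the chromosomes. Chromosome 1 held 152 of the 732 members (20.8%) and 11.9% of all autosomal PiC islands. That was 77.1 members per 100 Mb, counted to the last island of the chromosome, against 29.6 over all autosomes. Chromosome 3 followed with 75 members (47.0 per 100 Mb), chromosome 7 with 68 (44.6), and chromosome 9 with 50 (40.3). The lowest densities were 11.6 per 100 Mb on chromosome 15 (12 members) and 11.5 on chromosome 12 (14 members). As a share of the islands of each chromosome, members made up 5.24% on chromosome 1 (range 4.45 to 6.11), 4.77% on chromosome 7 (3.72 to 6.0) and 4.08% on chromosome 3 (3.23 to 5.09), against 1.18% on chromosome 15 (0.611 to 2.05). Members on chromosome 1 also had the highest median density, 43.8 tags per kb.

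All autosomes but 1 had more islands of 10 kb or more in PiCs than in ESCs, among them chromosome 1 with 152 in PiCs and 39 in ESCs. Chromosome 15 was the exception, with 12 in PiCs and 14 in ESCs. This held there for H3K9me3 islands of any width, with 1018 in PiCs and 1107 in ESCs, of which the broad ones made up 1.18% in PiCs and 1.26% in ESCs. Its 12 members had the highest ESC cover of any autosome, 75.9%, and none lacked an ESC base. The other autosomes lay between 40.5% (chromosome 19) and 63.8% (chromosome 11). Choice by ESC width gave another picture of chromosome 15. Of its 14 broad ESC islands, 7 had no PiC H3K9me3 base, against 19 of 190 (10%) over all autosomes. Over all members H3K36me3 was met at 12.7% in PiCs and 6.15% in ESCs, and its share among all H3K9me3 islands of each chromosome was not measured. Chromosomes 11 and 19, with 20 and 12 members, had no member with H3K36me3 in either condition. Chromosome 17 had H3K36me3 at 10 of its 36 members in PiCs and at 8 in ESCs. On chromosome 1 it was found at 15 of 152 members in PiCs and at 4 in ESCs, and on chromosome 3 at 6 of 75 in PiCs and at 0 in ESCs.

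**Figure D4:**
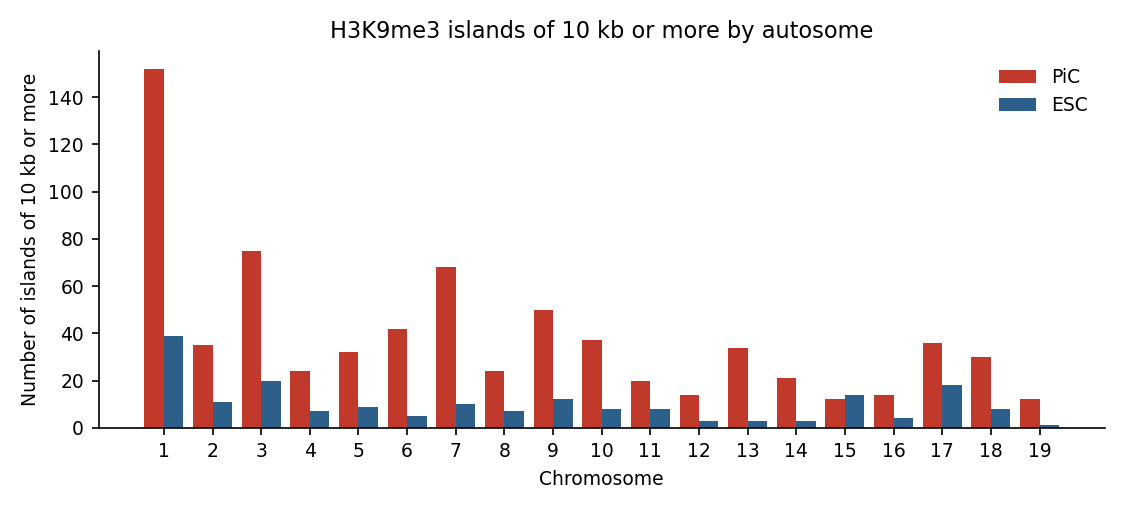
Number of H3K9me3 islands of 10 kb or more (y axis) on each autosome (x axis) in PiCs (red) and ESCs (blue). Chromosome 1 has 152 in PiCs and 39 in ESCs, and chromosome 15, with 12 in PiCs and 14 in ESCs, is the one autosome with fewer in PiCs, as it is for islands of any width (1018 in PiCs and 1107 in ESCs).

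Some members lay near each other and others far apart. Spacing was measured for members alone, so no level for other PiC islands stands beside it. The median distance to the nearest other member was 229.2 kb, and 258 members (35.2%) had one within 100 kb, while 193 (26.4%) had none within 1 Mb. Joining members over gaps of up to 100 kb gave 90 groups of 2 or more, and 12 groups of 4 or more. H3K9me3 cover was higher beside members than beside narrower islands. The flanks were those of all members, whether grouped or not. Another member lay within 10 kb of 92 members, and such neighbours add to the PiC cover of the flanks. Their part in it was not measured. In the 10 kb on either side of members, islands covered 19.6% in PiCs and 10.8% in ESCs, and beside narrower islands 10.2% in PiCs and 6.32% in ESCs. From 50 to 100 kb away the values beside members were 15.35% in PiCs and 7.14% in ESCs, and beside narrower islands 7.32% in PiCs and 3.63% in ESCs. Flanks of islands that lie close together overlap and were counted for each.

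The densest groups differed in how much of them ESCs shared. The 11 members on chromosome 1 from 119645001 to 120058800 all had ESC H3K9me3, over 66.0% to 98.8% of each, and 36.9 to 66.2 tags per kb in PiCs. The 11 members on chromosome 2 from 36217401 to 36806800 included 4 with no ESC base, with ESC cover of 32.4% over the group and 24.8 to 42.45 tags per kb. Of the 9 members on chromosome 3 from 3008201 to 3278000, 2 had no ESC base. The 9 on chromosome 7 from 69638401 to 70053600 had ESC cover of 26.2%, the lowest of these groups, and 8 of them met at least 1 ESC island. The 5 on chromosome 17 from 27373201 to 27515800 were the opposite case, with ESC cover of 92.6% to 100% in each. None of the members in these 5 groups carried H3K36me3 in PiCs or ESCs.

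In windows of 1 Mb, 427 windows held a member and 31 held 4 or more. The 5 richest held 50 members (6.83%). They were chromosome 3 from 3000001 to 4000000 (13 members), chromosome 2 from 36000001 to 37000000 (11), chromosome 1 from 119000001 to 120000000 (10), chromosome 7 from 5000001 to 6000000 (8) and chromosome 1 from 8000001 to 9000000 (8). On chromosome 3 H3K9me3 islands covered 390.2 kb of the window in PiCs and 142.2 kb in ESCs, and on chromosome 2 they covered 326.6 kb in PiCs and 138.8 kb in ESCs. The window on chromosome 1 at 119000001 was closest between conditions, with 296.6 kb in PiCs and 189.4 kb in ESCs. Broad ESC islands numbered 3, 1, 5, 1 and 3 in the 5 windows in the order given. H3K36me3 covered at most 36 kb of any of them in PiCs and 53.2 kb in ESCs.

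**Figure D5:**
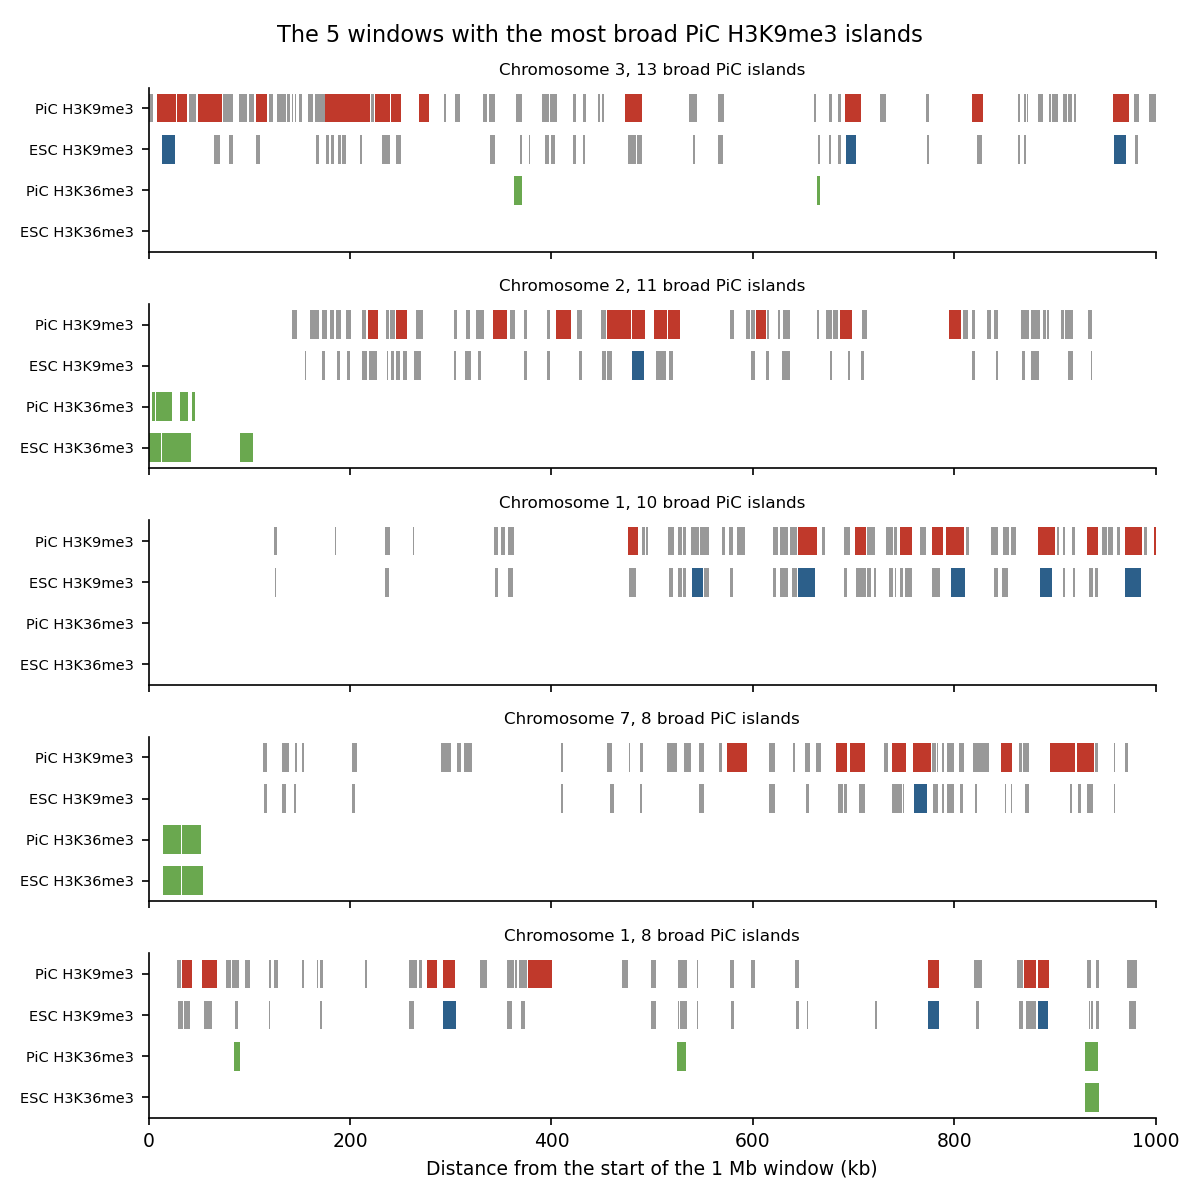
Islands in the 5 windows of 1 Mb with the most members, by distance from the window's start in kb (x axis); the rows of each panel are H3K9me3 in PiCs and in ESCs and H3K36me3 in PiCs and in ESCs. H3K9me3 islands of 10 kb or more are red in PiCs and blue in ESCs, narrower ones grey, and H3K36me3 islands green. The chromosome 3 window has 13 broad islands in PiCs and 3 in ESCs, and the first chromosome 1 window has 10 in PiCs and 5 in ESCs.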

How the data were processed

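Per the submitters' processing notes, islands were called with SICER on mm9. The sources used here do not give the SICER version and thresholds, the aligner, duplicate handling or use of the input. The deposited lists, 1 per library, give each island's chromosome, start, end and a whole number, read as its tag count and not scaled to depth. Starts and ends lay on a 200 bp grid. Samples were grouped by title. Members and lists were chosen with earlier results of these data known.

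Covered bases, islands met (overlap of 1 bp or more) and ESC tags, prorated by overlap, were computed over each span with numpy 2.4.6, scipy 1.17.1 and pandas 2.3.3 under Python 3.11.15, and tested on simulated lists. Named regions followed a rule: the widest, the densest and the extremes of ESC and H3K36me3 cover, with ties taken by width. A few groups and chromosomes were named after their values were seen. The gene and promoter tables at hand were of GRCm38.p6, so genes and sequences were not assigned.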

Additional observations from a re-analysis of the deposited data

How the results depend on the processing

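With 1 library per group no setting could leave out a replicate, and no paired analysis was possible because there is a single library per group. Of 78 alternative values, 48 stayed within the interval of the value given (within 1.5 times for counts) and 30 moved. For shares of bases this interval was a binomial one over islands, as if each island were wholly covered or not. For the tag ratio it took single tags as independent, so even small shifts of that ratio count as moved. At limits of 15 and 20 kb the members numbered 151 and 40, of which 51 and 15 had ESC cover under 50%. The share with an ESC base was 94.7% at 15 kb, and ESC islands covered 58.5% and 59.0% of the bases. Several ESC islands were met by 47.7% and 47.5%, and the tag ratio was 2.13 and 1.98. PiC H3K36me3 cover was 4.14% at 20 kb, and PiC cover of broad ESC islands was 90.9% at 15 kb. Joining H3K9me3 islands over 2 kb gave 1434 members in PiCs, where ESCs had 488 such islands. Of the members 695 had ESC cover under 50%, with 50.2% of bases covered, 24.5% meeting several ESC islands and a tag ratio of 2.29. With the 50% of ESC islands richest in tags, 83.9% of members had an ESC base, 22.0% met several and the tag ratio was 2.14. ESC islands lengthened by 1 kb covered 66.7%. With the 50% of each H3K36me3 list richest in tags, cover was 6.04% in PiCs and 2.26% in ESCs, and the shares of members met were 7.51% in PiCs and 3.28% in ESCs. The tag ratio was 0.945 with each list divided by its sum and 2.99 with ESC islands wholly inside the span. Added after seeing the data, it was 2.18 without members over 100 tags per kb, and ESC cover of the 190 widest PiC islands was 58.2%. Leaving out chromosome 1 or chromosome 15 kept every result computed within its interval. H3K36me3 cover of the members was the higher in PiCs under each setting run. Where no cause is shown by the setting's own construction, the cause was not tested. Unknown depth limits all tag comparisons, and the unlike floors of the lists limit comparisons of called islands.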

Other observations

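Broad islands were more frequent than other H3K9me3 islands near the start of the chromosomes, where the centromere of mouse chromosomes lies. Of the 732 members 67 (9.15%), on 15 chromosomes, started before 6 Mb, against 4.59% of all autosomal PiC islands. They were unevenly spread. The window on chromosome 3 from 3000001 to 4000000 held 13 of the 67, and that on chromosome 7 from 5000001 to 6000000 held 8. ESC islands covered 52.0% of these members and 54.2% of the others. This limit was chosen after the positions had been seen.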
